A study of Homo sapiens with 15 samples.

Results

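The response of A549 cells to 6 hours of dexamethasone was described from 6 arrays of a series of 15, the 3 titled as dexamethasone for 6 hours against the 3 titled as non-treated control. A549 is an established line of human lung adenocarcinoma with epithelial features, and dexamethasone is a synthetic glucocorticoid. All cells were kept in F12K medium with charcoal-treated serum, which is low in steroid hormones, and the labels name no other agent for either group. The labels give no dose of dexamethasone. The other 9 arrays, 3 each of cells given dexamethasone with mifepristone, a match polyamide or a mismatch polyamide, entered only through the shared normalization and the shared estimate of the spread, except where they are named. The labels do not say whether the 3 arrays of a group came from separate cultures, so p-values measure the spread of the deposited arrays alone, and that spread may be technical.

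Dexamethasone enters the cell and binds the glucocorticoid receptor, a ligand-activated transcription factor that is held in the cytoplasm by chaperones and moves to the nucleus. There the receptor binds inverted repeats of a short DNA element and raises transcription of nearby genes, and it lowers other genes in part through factors such as AP-1 and NF-kappaB. In lung epithelium glucocorticoids are known for dampening inflammatory mediators, for promoting salt and fluid absorption and for advancing maturation around birth.

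The 3 arrays within each group correlated at r = 0.982 to 0.984, and no array repeated another. Signals were quantile normalized, and changes are given on the scale of log2(signal + 16), which understates the change of genes with low signals. Of 39744 probe sets tested, 1927 (4.85%) changed at an adjusted p under 0.05, 1017 (2.56%) higher and 910 (2.29%) lower, a split of 52.8% higher that became 69.3% on the signals as deposited. With 1 probe set for each of 16358 genes, 1111 genes (6.79%) changed, 522 (3.19%) higher and 589 (3.6%) lower. On the signals as deposited the higher share of genes moved from 47% to 62.1%. Rises were larger than falls, with 139 genes (0.85%) higher and 55 (0.336%) lower by 2-fold or more, and medians of 0.71 among the called rises and -0.54 among the called falls. The median over all genes was -0.036. Arrays of the groups did not overlap for 1107 of the 1111 called genes, and for 3911 of all genes tested (23.9%). The call was lost in none of 17 alternative ways of processing for 372 genes, 213 higher and 159 lower. The same held for 187 of the 194 called genes with a change of 2-fold or more. A stricter filter on low signals left 15 called genes untested, which was not counted as a loss. Below, a call held in every alternative is one that held in each alternative that tested the gene. A gene named below with its change kept its call in this sense unless its sentence says otherwise. The line's identity was checked on fixed markers. All 6 epithelial markers and all 6 markers of the NRF2-active state of this line were above the 40th percentile of the arrays (a normalized signal of 12.01) on all 6 arrays. None of the 7 leukocyte markers was, while 2 of 6 fibroblast, 1 of 5 endothelial and 1 of 3 erythroid markers were, and the summed signals of these lists overlapped between the groups (leukocyte 50.9 to 60.6 non-treated, 51.8 to 63.1 with dexamethasone). The summed epithelial markers were 15550 to 16030 non-treated and 17740 to 17800 with dexamethasone, and the summed NRF2-state markers 43710 to 44840 and 41910 to 42240. Neither list's groups overlap, and the part of these shifts in the results was not tested. Of the 6 alveolar type II markers, 3 were above that line on all 6 arrays. These were SFTPB (mean signals of 56.8 non-treated and 59.35 with dexamethasone), ABCA3 (70.1 and 69.1) and NAPSA (43.7 and 31.05). SFTPC (19.4 and 17.6) and LAMP3 (6.36 and 6.95) were not above it on all 6, and SFTPA2 had no probe set carrying its symbol alone. In bulk RNA a lower signal from fewer cells and one from less RNA per cell cannot be told apart.

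**Figure D1:**
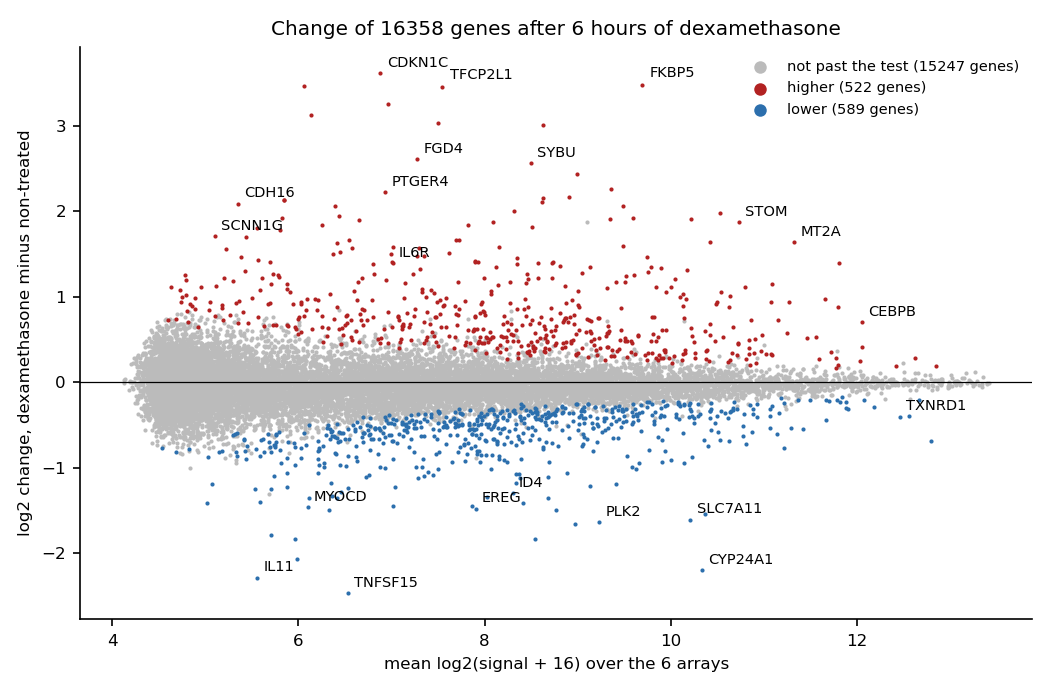
Log2 change of each of 16358 genes with dexamethasone (vertical axis) against its mean log2(signal + 16) over the 6 arrays (horizontal axis), with 522 called rises in red, 589 called falls in blue and other genes in grey. The rises reach further from 0 (CDKN1C, 3.62) than the falls (TNFSF15, -2.47).

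Promoters were searched for the receptor's element. RefSeq promoters (GRCh38.p14, 250 bases before to 50 after the start) were matched for 12931 of the tested genes, 104 of them raised and 36 lowered by 2-fold or more. The full palindrome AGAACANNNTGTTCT occurred in 0 of the 12931. A looser form, GNACANNNTGTNC, which reads the same on both strands, occurred in 30 (0.232%). Among the 104 it was found in 2, and among the 36 in 1 (2.78%). The 2 raised genes are printed with the match, which begins at -244 (CHST7) and -181 (CMKLR2) from the start, in capitals, because they are the only ones of the 104 to hold it. The core ACANNNTGT, which lies within the looser form, stood in 6 of the 104 (5.77%) and in 2 of the 36 (5.56%), against 3.31% of all promoters searched. A match is a description of these letters, not a site or a cause.
CHST7 (chrX:46573515-46573547, plus strand): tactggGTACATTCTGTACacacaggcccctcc
CMKLR2 (chr2:206213526-206213566, minus strand): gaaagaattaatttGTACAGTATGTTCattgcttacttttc

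CHST7, which transfers sulfate to glycosaminoglycans, had signals of 121, 126 and 155 on the non-treated arrays and 355, 379 and 403 with dexamethasone. CMKLR2, a G protein coupled receptor also known as GPR1, had signals of 12.8, 35.8 and 10.8 on the non-treated arrays and 79.5, 55.9 and 65.4 with dexamethasone. Neither gene's arrays overlapped between the groups. CHST7 rose by 1.40 on the log2 scale (SE 0.10, adjusted p = 7.0e-09) and CMKLR2 rose by 1.27 on the log2 scale (SE 0.25, adjusted p = 0.0025).

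Some genes went from below the low-signal line to above it. On all 3 non-treated arrays 26 called genes lay at or under the 12.01 line and on all 3 dexamethasone arrays above it, and 12 of them kept the call in every alternative. DNAJC15, a mitochondrial co-chaperone, went from 0.979, 11.8 and 0.972 to 244, 196 and 179.7. RRAD, a Ras-related GTPase that restrains calcium channels, went from 10.3, 9.58 and 4.06 to 181, 182 and 212. CDH16, a cadherin of kidney epithelium, went from 2.90, 0.902 and 8.41 to 78.7, 68.3 and 59.3. The changes were 3.47 (SE 0.21, adjusted p = 3.9e-10), 3.12 (SE 0.18, adjusted p = 2.2e-10) and 2.09 (SE 0.26, adjusted p = 1.3e-05), and RRAD and CDH16 are adjacent among the tested genes of chromosome 16. ABCC8, the sulfonylurea receptor that regulates a potassium channel, rose by 1.69 on the log2 scale (SE 0.22, adjusted p = 2.4e-05). TMEM63C, a membrane protein of the osmosensitive channel family, rose by 1.56 on the log2 scale (SE 0.30, adjusted p = 0.0022). SDK2, an adhesion molecule, SFRP5, a secreted Wnt antagonist, and SYTL3, a Rab effector, rose by 1.46, 1.2 and 1.12. ENTPD2, an enzyme that splits extracellular ATP, rose by 0.94 on the log2 scale (SE 0.20, adjusted p = 0.0065). In the other direction 7 called genes dropped under the line on all 3 arrays, 3 of them in every alternative. These were IL11, the tripartite-motif-like TRIML2 (44.0, 30.1 and 37.4 and then 3.5, 2.32 and 5.85) and HTR2B, a serotonin receptor (34.0, 45.7 and 27.1 and then 10.8, 4.04 and 4.63). These genes were picked by the line, which keeps their groups from overlapping.

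SYBU, a linker of cargo to kinesin motors, had signals of 132, 128 and 138 on the non-treated arrays and 844, 874 and 875 with dexamethasone. It rose by 2.57 on the log2 scale (SE 0.08, adjusted p = 1.2e-14). EDN3, a vasoactive endothelin peptide, had 14.99, 10.6 and 9.19 on the non-treated arrays and 99.7, 108 and 104 with dexamethasone. It rose by 2.13 on the log2 scale (SE 0.15, adjusted p = 3.1e-09). For both genes each dexamethasone array lay several-fold above each non-treated one. PRR15L (2.13), FAM43A (1.95), OTULINL (2.07) and GMPR, a purine nucleotide reductase (1.93), rose as well. CAVIN2, which coats caveolae, rose by 1.90 on the log2 scale (SE 0.13, adjusted p = 1.8e-09). Outside the 53 gene lists used here, ETNK2, an ethanolamine kinase, rose by 1.80, TMT1A by 1.78, ARRB1, the beta-arrestin that desensitises G protein coupled receptors, by 1.66 and TGFBR1, a TGF-beta receptor, by 1.00.

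PLK2, a polo-like kinase, had signals of 1003, 1021 and 1111 on the non-treated arrays and 329.8, 319 and 327 with dexamethasone. It fell by 1.64 on the log2 scale (SE 0.07, adjusted p = 1.9e-12), with groups far apart. MYOCD, a coactivator of serum response factor, fell by 1.47 on the log2 scale (SE 0.21, adjusted p = 8.1e-05). NEIL3, a DNA glycosylase, fell by 1.34 on the log2 scale (SE 0.09, adjusted p = 2.0e-09). DIO2, the deiodinase that activates thyroid hormone, fell by 1.33 on the log2 scale (SE 0.20, adjusted p = 1.7e-04), and 2 of its other 4 tested probe sets were called lower too. RBM24, an RNA-binding protein (-1.41), NAV3 (-1.35), RASSF10 (-1.41), the ubiquitin ligase MARCHF4 (-1.29), IFFO2 (-1.5) and IER5L (-1.45) fell by more than 2-fold. AXIN1, a scaffold of the Wnt pathway, was among the 30 largest falls at -1.25 (SE 0.32, adjusted p = 0.024), but 8 of the 17 alternatives lost its call. EDN1, the endothelin of airway and vessel, had signals of 941, 1008 and 1096 on the non-treated arrays and 467, 400.5 and 439 with dexamethasone and fell by 1.19 on the log2 scale (SE 0.08, adjusted p = 4.3e-09). EDN3 and EDN1 thus stood on opposite sides, as measured on their own probe sets. A second probe set of EDN1 was called lower and the third stood at -0.07 (adjusted p = 0.85).

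**Figure D2:**
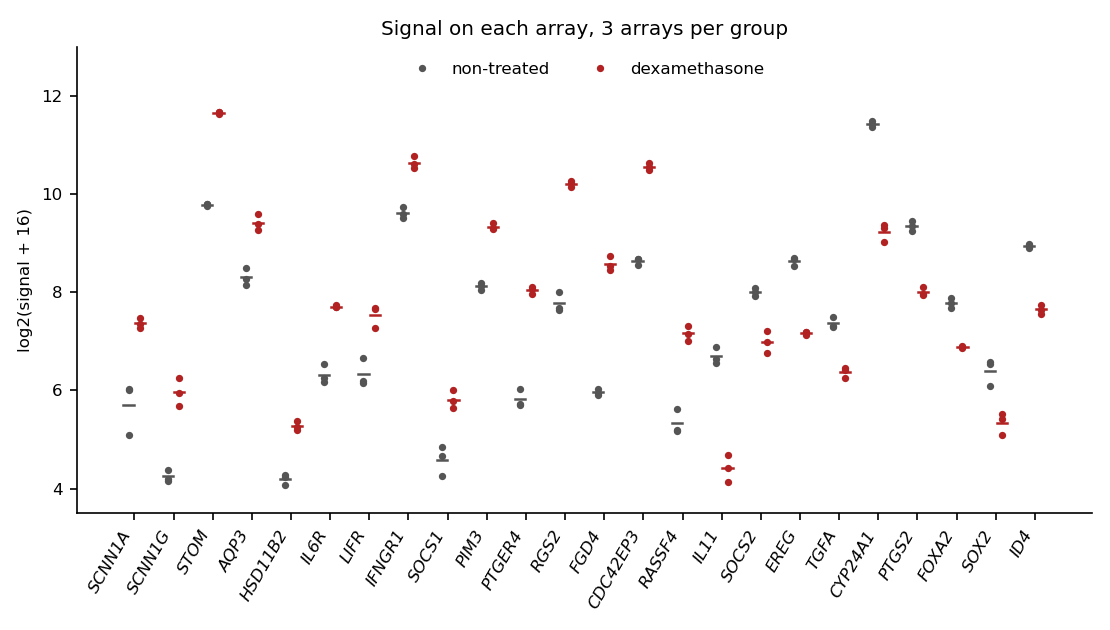
Signals of 24 genes on each of the 3 non-treated arrays (grey) and 3 dexamethasone arrays (red) as log2(signal + 16), with the group mean as a bar. SCNN1A has 1 non-treated array well below the other two.

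Several of the largest falls shared an AP-1 motif in the promoter window. AP-1 is a dimer of FOS and JUN proteins, and the motif searched was TGANTCA, which reads the same on both strands. It was present in 7 of the 36 promoters of genes lowered 2-fold or more (19.4%), in 8 of the 104 raised 2-fold or more (7.69%) and in 680 of all 12931 (5.26%). Over all called genes the shares were closer, at 6.33% of those lowered and 6.22% of those raised. AP-1 was among several motifs searched. Among the 36, the shares were 5.56% for kappaB (12.7% of all promoters), 13.9% for TATA (7.36%) and 8.33% for STAT (6.5%). They were 8.33% for C/EBP (7.71%), 2.78% for CRE (2.85%), 2.78% for the E-box (9.46%) and 5.56% for the antioxidant response element (15.1%). Of the 7 with AP-1, 5 are printed with the motif in capitals, those whose match lies wholly upstream of the start. DIO2 and TRIML2 are left out because their match does not.
IL11 (chr19:55370536-55370576, minus strand): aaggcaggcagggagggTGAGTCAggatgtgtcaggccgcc
TNFSF15 (chr9:114792627-114792667, minus strand): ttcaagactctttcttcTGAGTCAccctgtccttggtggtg
F2RL2 (chr5:76623417-76623457, minus strand): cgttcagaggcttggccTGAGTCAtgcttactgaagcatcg
OSGIN1 (chr16:83953126-83953166, plus strand): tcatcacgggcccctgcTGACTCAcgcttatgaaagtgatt
C6orf141 (chr6:49550483-49550523, plus strand): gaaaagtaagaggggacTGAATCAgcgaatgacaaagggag

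IL11, a cytokine of the interleukin-6 family, had signals of 103, 84.4 and 78.2 on the non-treated arrays and 1.46, 9.65 and 5.53 with dexamethasone. TNFSF15, a TNF-family cytokine, had 203, 200.3 and 203 on the non-treated arrays and 29.6, 20.8 and 20.4 with dexamethasone. The groups did not overlap, and the changes were -2.29 (SE 0.22, adjusted p = 3.8e-07) and -2.47 (SE 0.14, adjusted p = 2.1e-10). A second, dim probe set of each was not called, at 0.19 (adjusted p = 0.86) for IL11 and -0.33 (adjusted p = 0.53) for TNFSF15. F2RL2, a thrombin receptor, fell by 1.02, OSGIN1, an oxidative stress gene, by 1.23 and C6orf141 by 1.25. The components of AP-1 moved in both directions. FOS rose by 1.15, JUNB by 0.86 and FOSL2 by 0.75, whereas FOSL1, with signals of 75.4, 71.3 and 66.6 on the non-treated arrays and 30.1, 29.4 and 26.0 with dexamethasone, fell by 0.97 on the log2 scale (SE 0.12, adjusted p = 2.2e-05). JUND fell by 0.94 on the log2 scale (SE 0.08, adjusted p = 2.6e-08), from 1516, 1565 and 1562 to 797, 728 and 869. These 5 genes were chosen after their values were seen.

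Metallothioneins, small cysteine-rich proteins that bind zinc and copper, sit in a cluster on chromosome 16 and rose together. Promoters of 3 of them were in the table, and 180 bases upstream of the start are printed because they hold many copies of the metal response element, searched as TGCACNC or TGCGCNC on both strands (capitals).
MT2A (chr16:56608404-56608583, plus strand): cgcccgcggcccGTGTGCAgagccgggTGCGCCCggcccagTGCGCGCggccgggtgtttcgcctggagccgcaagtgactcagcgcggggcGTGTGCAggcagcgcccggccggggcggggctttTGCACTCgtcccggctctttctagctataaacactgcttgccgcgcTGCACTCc
MT1H (chr16:56669634-56669813, plus strand): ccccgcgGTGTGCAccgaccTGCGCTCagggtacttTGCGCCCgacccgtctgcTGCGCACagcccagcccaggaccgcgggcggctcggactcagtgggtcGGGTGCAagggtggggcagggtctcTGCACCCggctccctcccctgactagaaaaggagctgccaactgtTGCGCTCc
MT1X (chr16:56682290-56682469, plus strand): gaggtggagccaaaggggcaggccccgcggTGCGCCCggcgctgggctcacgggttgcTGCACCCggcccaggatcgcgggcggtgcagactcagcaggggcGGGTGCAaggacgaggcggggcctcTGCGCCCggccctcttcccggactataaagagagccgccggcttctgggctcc

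In the full 300-base windows there were 8 matches for MT2A, 8 for MT1H and 4 for MT1X. Only 109 of all promoters searched (0.843%) held 4 or more, and the median was 0. MT2A had signals of 1135, 1591 and 1636 on the non-treated arrays and 4653, 4489 and 4344 with dexamethasone. MT1F had 134, 232 and 163 on the non-treated arrays and 855, 813 and 788 with dexamethasone. All dexamethasone arrays were above all non-treated ones. Changes were 2.26 (SE 0.13) for MT1H, 2.15 (SE 0.16) for MT1F, 1.98 (SE 0.08) for MT1X, 1.88 (SE 0.15) for MT1E and 1.64 (SE 0.13) for MT2A. MT1G had a dim probe set at 0.17, 95% CI -0.35 to 0.69, adjusted p = 0.84. The metallothioneins are near-identical in sequence, so a probe set may measure several members and the split between members is uncertain. A second probe set of MT1E was not called, at 0.41 (adjusted p = 0.17). Of 47 tested genes of metal and micronutrient transport, 8 rose and 3 fell (23.4% called against 6.79% of all genes). The other 36 did not pass the test and the list's median was -0.053, and all 8 rises kept their calls in every alternative. Besides the 5 metallothioneins the rises were the thiamine transporter SLC19A2 (1.13), the carnitine transporter SLC22A5 (1.16) and the zinc importer SLC39A14 (0.88, SE 0.09). The iron exporter SLC40A1 fell by 1.12. SLC30A1, a zinc exporter known as a target of metal signalling, was not called, at -0.15 with a 95% CI of -0.40 to 0.10 (adjusted p = 0.66).

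Salt and water transport by the epithelium was among the groups with the most rises. Of 51 tested genes, 12 rose, 2 fell and 37 did not pass the test (27.5% called against 6.79% of all genes). The median was -0.012, and 7 rises and 0 falls held in every alternative. SCNN1A, the alpha subunit of the epithelial sodium channel, had signals of 49.1, 48.6 and 17.9 on the non-treated arrays and 139, 147 and 163 with dexamethasone. SCNN1G, the gamma subunit, had 4.93, 1.81 and 2.44 on the non-treated arrays and 35.5, 45.4 and 60.02 with dexamethasone. One non-treated array lay well below the other two for SCNN1A, and the groups overlapped for neither gene. A second probe set of SCNN1A was not called, at 0.40 (adjusted p = 0.62). SCNN1A rose by 1.66 on the log2 scale (SE 0.18, adjusted p = 1.7e-06) and SCNN1G rose by 1.71 on the log2 scale (SE 0.21, adjusted p = 1.4e-05). STOM, stomatin, a membrane regulator of channels, rose by 1.87 on the log2 scale (SE 0.05, adjusted p = 7.7e-16), with signals of 855, 879 and 873 on the non-treated arrays and 3234, 3179 and 3270 with dexamethasone. The water and glycerol channel AQP3 rose by 1.12, the sulfate transporter SLC26A2 by 0.92 and NEDD4, a ubiquitin ligase, by 1.05. NEDD4L, the ligase that removes the sodium channel from the membrane, was at 0.62 (SE 0.10, adjusted p = 4.3e-04), a call lost on the signals as deposited (adjusted p = 0.061) and with spike-in scaling (0.13). The kinase SGK1, which restrains NEDD4L, rose by 0.96 on the log2 scale (SE 0.10, adjusted p = 1.0e-06). HSD11B2, which inactivates cortisol in such epithelia, went from 3.42, 0.771 and 2.86 to 20.5, 25.3 and 21.9, a change of 1.07 (SE 0.21, adjusted p = 0.0028).

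The pathway from interleukin-6 family and interferon receptors through JAK kinases to STAT factors changed at receptors, ligands and inhibitors. Of 37 tested genes, 10 rose, 5 fell and 22 did not pass (40.5% called against 6.79% of all genes). The median was 0.043, and 7 rises and 2 falls held in every alternative. IL6R, the interleukin-6 receptor, had signals of 59.95, 55.7 and 76.8 on the non-treated arrays and 197, 191 and 191 with dexamethasone. LIFR, the receptor of leukaemia inhibitory factor, had 55.1, 85.7 and 57.0 on the non-treated arrays and 190.2, 185 and 138 with dexamethasone. IFNGR1, a chain of the interferon-gamma receptor, had 844, 757 and 713 on the non-treated arrays and 1748, 1550 and 1466 with dexamethasone. Each of these receptors was higher on every dexamethasone array than on any non-treated one, and the changes were 1.39 (SE 0.16, adjusted p = 4.5e-06), 1.2 (SE 0.18, adjusted p = 2.0e-04) and 1.03 (SE 0.09, adjusted p = 1.7e-07). IL6ST, the chain that the interleukin-6 family shares, was at 0.55 (SE 0.07, adjusted p = 1.8e-05) and lost its call with spike-in scaling (adjusted p = 0.12). The falls on the ligand side were IL11 and LIF, of which LIF (-0.44, SE 0.12, adjusted p = 0.033) lost its call in 8 alternatives. Among feedback inhibitors, SOCS1 rose by 1.22 on the log2 scale (SE 0.22, adjusted p = 0.001), SOCS3 rose by 0.82, and SOCS2, an inhibitor of growth hormone signalling, fell by 1.02 on the log2 scale (SE 0.12, adjusted p = 1.2e-05). Other tested probe sets of SOCS3 were not called, at 0.55, 0.43 and 0.03. The kinase PIM3, a survival kinase of this pathway, rose by 1.21 on the log2 scale (SE 0.09, adjusted p = 8.3e-09). BCL6, a repressor, rose by 0.79 on the log2 scale (SE 0.11, adjusted p = 7.8e-05), while its other tested probe sets were not called, at 0.43 and 0.62. OSMR, the oncostatin M receptor, was at -0.42 (SE 0.09, adjusted p = 0.0086), with the call lost in 5 alternatives. Of 41 tested interferon response genes, 2 rose and 1 fell (7.32% called against 6.79% of all genes), none of them in every alternative, with a median of -0.035.

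Among growth factors and their receptors more genes fell than rose. Of 38 tested growth factors and receptors, 1 rose, 7 fell and 30 did not pass (21.1% called against 6.79% of all genes). The median was -0.156, and 0 rises and 5 falls held in every alternative. EREG, epiregulin, a ligand of the EGF receptor, had signals of 402, 395 and 357 on the non-treated arrays and 129, 124 and 129.6 with dexamethasone. TGFA, transforming growth factor alpha, another ligand, had 166, 141 and 143 on the non-treated arrays and 71.9, 69.8 and 60.4 with dexamethasone. Both sets of arrays were apart, and the falls were -1.48 (SE 0.10, adjusted p = 1.8e-09) and -0.99 (SE 0.11, adjusted p = 1.9e-06). Other tested probe sets were not called, 1 for EREG (-0.32) and 2 for TGFA (0.18 and 0.31). HBEGF, a further ligand, was not called, at 0.18 with a 95% CI of -0.18 to 0.54 (adjusted p = 0.73). FGFBP1, which releases fibroblast growth factors from matrix, was at -0.79 and the macrophage factor CSF1 at -0.78. NRP1, a co-receptor, fell by 0.66 on the probe set used, while its other 3 tested probe sets were not called, at 0.09 to 0.18. KITLG, the ligand of KIT, was at 0.61 (SE 0.08, adjusted p = 5.1e-05), lost on the signals as deposited (adjusted p = 0.057) and with spike-in scaling (0.14). ERRFI1, an inhibitor of the EGF receptor, had signals of 764, 781 and 726 on the non-treated arrays and 2329, 2401 and 2475 with dexamethasone and rose by 1.64 on the log2 scale (SE 0.05, adjusted p = 4.7e-14).

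Of 29 tested genes of MAP kinase feedback, 4 rose, 9 fell and 16 did not pass (44.8% called against 6.79% of all genes). The median was -0.24. The balance depended on the scaling, with 3 rises and 2 falls on the signals as deposited and 3 and 3 with spike-in scaling. In every alternative the rises of ERRFI1, of the phosphatase DUSP1 (1.40) and of RASSF4 held, as did the falls of the kinases MAP3K8 (-0.84, SE 0.10, adjusted p = 8.1e-06) and MAP3K14 (-0.98, SE 0.16, adjusted p = 3.1e-04). RASSF4, a Ras-association protein, had signals of 20.1, 20.8 and 33.4 on the non-treated arrays and 127, 114 and 144 with dexamethasone and rose by 1.83 on the log2 scale (SE 0.18, adjusted p = 3.9e-07). DUSP4, a phosphatase of nuclear ERK, was lower at -0.51 (SE 0.08, adjusted p = 1.4e-04), a call lost on the signals as deposited (adjusted p = 0.13) and with spike-in scaling (0.084). SRC, a tyrosine kinase outside the list, fell by 0.93 on the log2 scale (SE 0.16, adjusted p = 7.9e-04). The phosphatases DUSP8 (-0.82), DUSP10 (-0.57) and DUSP14 (-0.31) were also called lower, and their calls were lost in 4, 9 and 11 alternatives.

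Further large rises were in FGD4, CDC42EP3 and AKAP13. FGD4, an exchange factor of CDC42, had signals of 46.0, 44.1 and 49.5 on the non-treated arrays and 410.3, 356 and 337 with dexamethasone. CDC42EP3, an effector of CDC42, had 394, 392.4 and 358 on the non-treated arrays and 1420, 1570 and 1481 with dexamethasone. The groups were several-fold apart in both. FGD4 rose by 2.61 on the log2 scale (SE 0.13, adjusted p = 1.5e-11) and CDC42EP3 rose by 1.92 on the log2 scale (SE 0.09, adjusted p = 1.3e-11). AKAP13, which anchors protein kinase A, had signals of 191, 166 and 161 on the non-treated arrays and 909.9, 896 and 620.3 with dexamethasone. The third dexamethasone array was lower than the other two and still above each non-treated array, and AKAP13 rose by 2.11 on the log2 scale (SE 0.14, adjusted p = 2.9e-09).

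Among 43 tested G protein coupled receptors 6 rose and 7 fell (30.2% called against 6.79% of all genes, median -0.048). On the signals as deposited 3 rose and 2 fell, and 3 rises and 2 falls held in every alternative. PTGER4, the EP4 receptor of prostaglandin E2, had signals of 36.2, 36.5 and 49.7 on the non-treated arrays and 233, 252 and 258 with dexamethasone. It rose by 2.22 on the log2 scale (SE 0.13, adjusted p = 2.4e-10). The adhesion receptors ADGRG6 and ADGRF4 rose by 0.76 and 0.91. F2RL2, described above, and S1PR5, a sphingosine phosphate receptor (-0.90), fell. BDKRB2, the bradykinin B2 receptor, was at -0.73 (SE 0.19, adjusted p = 0.023), lost in 6 alternatives, and BDKRB1 was not called, at -0.22 with a 95% CI of -0.68 to 0.23 (adjusted p = 0.74). In cAMP and RGS signalling 3 of 45 tested genes rose and 4 fell (15.6% called, median -0.128, with 3 and 1 on the signals as deposited). RGS2, which shortens signalling by Gq, had signals of 189, 184 and 241 on the non-treated arrays and 1120, 1224 and 1176 with dexamethasone. It rose by 2.44 on the log2 scale (SE 0.09, adjusted p = 2.2e-13). The scaffold AKAP12 rose by 0.97 and the phosphodiesterase PDE4B fell by 0.85.

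Of 48 tested genes of steroid, retinoid and prostanoid metabolism, 5 rose and 6 fell (22.9% called against 6.79% of all genes). The other 37 did not pass, and the list's median was -0.022. The split was 5 and 2 on the signals as deposited and 4 and 4 with spike-in scaling. In every alternative 4 rises and 2 falls held. PTGS2, the inducible cyclooxygenase, had signals of 640.3, 593 and 687 on the non-treated arrays and 233, 229.7 and 259 with dexamethasone and fell by 1.35 on the log2 scale (SE 0.10, adjusted p = 1.3e-08). PTGES, a prostaglandin E synthase, was higher at 0.58 (SE 0.08, adjusted p = 3.0e-05), a call lost with spike-in scaling (adjusted p = 0.16), and its second probe set was called higher too (0.95, adjusted p = 0.018). HPGD, which breaks prostaglandins down, rose by 0.72 on the log2 scale (SE 0.09, adjusted p = 1.6e-05). Its 3 other tested probe sets were called higher too. ALOX5AP, the activating protein of leukotriene synthesis, rose by 1.23, and MAOA, which oxidises amines, by 1.27. CYP24A1, the vitamin D hydroxylase, had signals of 2641, 2760 and 2864 on the non-treated arrays and 621, 502 and 643 with dexamethasone and fell by 2.20 on the log2 scale (SE 0.10, adjusted p = 4.3e-12). Genes that handle retinoids were lower with less support. CYP26B1 (-0.66, SE 0.12, adjusted p = 0.0012) and DHRS3 (-0.69, SE 0.14, adjusted p = 0.003) lost their calls on the signals as deposited (adjusted p = 0.096 and 0.079), RDH10 (-0.35, SE 0.08, adjusted p = 0.015) lost it in 6 alternatives and CYP26A1 (-0.67, SE 0.17, adjusted p = 0.023) in 7.

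**Figure D3:**
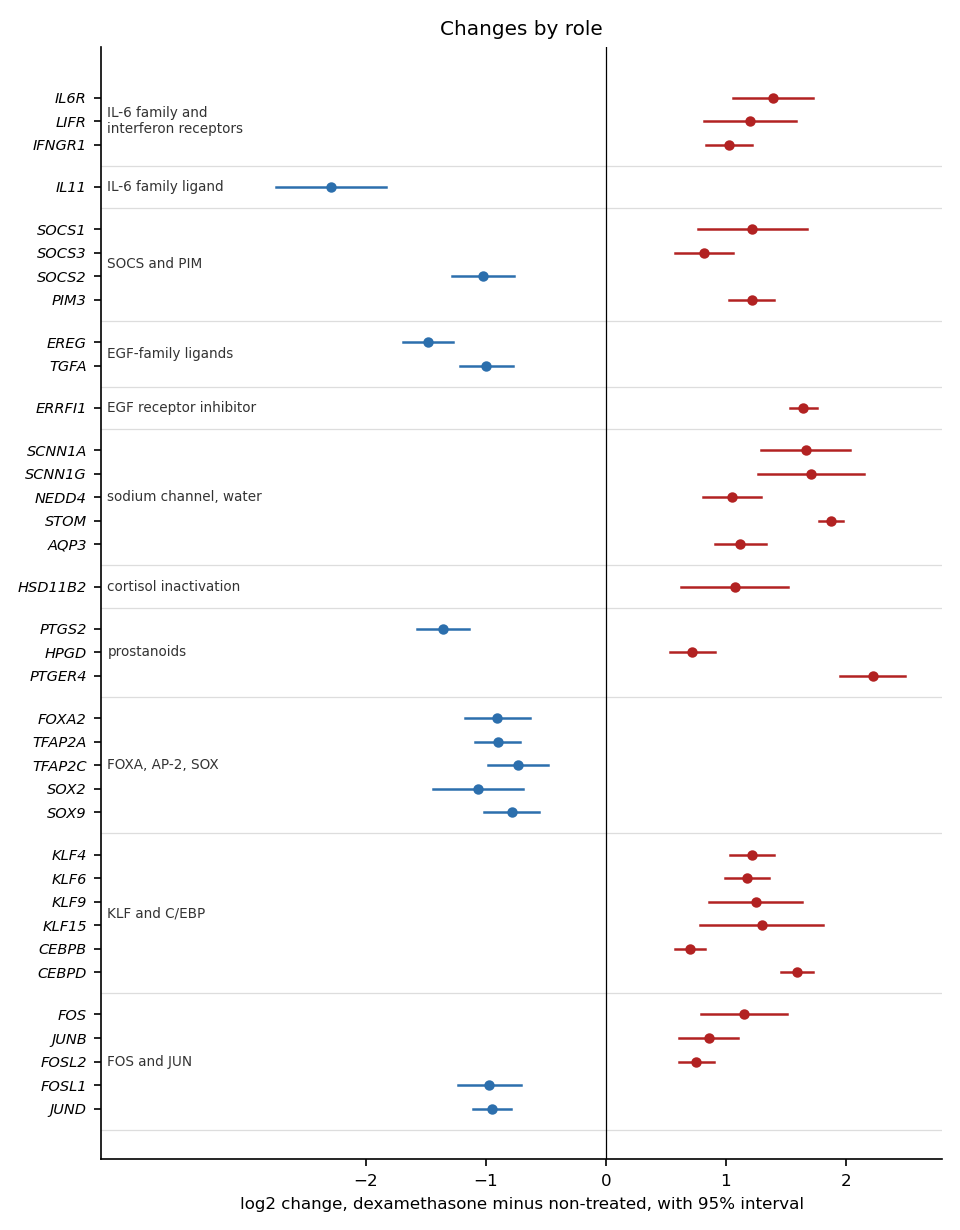
Log2 change with dexamethasone and its 95% interval for genes grouped by role, rises in red and falls in blue. Receptors of the interleukin-6 family and of interferon-gamma (IFNGR1 1.03, LIFR 1.2, IL6R 1.39) lie right of 0 and IL11 (-2.29) lies left of it, and the FOS and JUN genes lie on both sides.

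Genes of lipid handling held more rises than falls. Of 48 tested genes of fatty acid oxidation and lipid droplets, 8 rose and 1 fell (18.8% called against 6.79% of all genes). The other 39 did not pass and the list's median was 0.05, with 6 rises and 0 falls in every alternative. ACSL1, which activates long-chain fatty acids, had signals of 375, 357 and 281 on the non-treated arrays and 1503, 1347 and 1502 with dexamethasone and rose by 2.06 on the log2 scale (SE 0.10, adjusted p = 1.7e-11). PPARGC1B, a coactivator of oxidative metabolism, had 33.6, 33.0 and 30.5 on the non-treated arrays and 152, 119 and 132 with dexamethasone and rose by 1.63 on the log2 scale (SE 0.15, adjusted p = 1.6e-07). PLIN2, which coats lipid droplets, rose by 0.87 on the log2 scale (SE 0.07, adjusted p = 2.6e-08), while a second tested probe set was not called, at -0.56 (adjusted p = 0.33). PDK4, which closes the entry of pyruvate into oxidation, rose by 1.35 on the log2 scale (SE 0.08, adjusted p = 1.9e-10). Among 44 tested genes of glucose and insulin signalling, 4 rose and 3 fell (15.9% called, median 0.04). IRS2, an adaptor of the insulin receptor, had signals of 683, 667 and 697 on the non-treated arrays and 1499, 1487 and 1481 with dexamethasone and rose by 1.11 on the log2 scale (SE 0.06, adjusted p = 2.1e-10), whereas IRS1 was at -0.42 (SE 0.09, adjusted p = 0.006) and lost its call in 4 alternatives. The brain glycogen phosphorylase PYGB rose by 1.12 and the glycolytic switch PFKFB3 fell by 0.91. TXNIP was not called, at 0.52 with a 95% CI of -0.01 to 1.04 (adjusted p = 0.35).

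In amino acid metabolism 2 of 47 tested genes rose and 4 fell (12.8% called against 6.79% of all genes, median -0.045). Only the fall of the cystine importer SLC7A11 held in every alternative. SLC7A11 had signals of 2021, 2199 and 1942 on the non-treated arrays and 735, 632 and 624 with dexamethasone and fell by 1.61 on the log2 scale (SE 0.08, adjusted p = 1.9e-11). GLUL, glutamine synthetase, was at 0.49 (SE 0.07, adjusted p = 6.7e-05) and lost its call on the signals as deposited (adjusted p = 0.14) and with spike-in scaling (0.38). NFE2L2, the NRF2 factor that is known to drive SLC7A11, had signals of 1965, 2023 and 1981 on the non-treated arrays and 1213, 1259 and 1199 with dexamethasone and itself fell by 0.69 on the log2 scale (SE 0.05, adjusted p = 1.3e-08). MAFG, a partner of NRF2 on DNA, fell by 0.82 on the log2 scale (SE 0.14, adjusted p = 6.3e-04). Whether the falls of NFE2L2 and MAFG bear on that of SLC7A11 was not tested. In phospholipid signalling 7 of 49 tested genes rose and 3 fell (20.4% called, median -0.02). Among them were the glucosylceramide synthase UGCG (0.75) and the lipid phosphatase PLPP3 (-1.05), the 2 calls that held in every alternative. In polyamine and nucleotide metabolism 1 of 46 tested genes rose and 4 fell (10.9% called, median -0.073). The fall of the spermine oxidase SMOX (-0.93) held in every alternative.

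Transcription factors were counted by family. Of 43 tested KLF, SP and ZBTB zinc fingers, 12 rose and 3 fell (34.9% called against 6.79% of all genes). The median was 0.085, with 7 rises and 0 falls in every alternative. KLF4 was at 1.22 (SE 0.09), KLF6 at 1.18 (SE 0.09), KLF9 at 1.25 (SE 0.19), KLF15 at 1.30 (SE 0.25), ZBTB20 at 1.22 (SE 0.13) and the repressor SNAI2 at 1.21 (SE 0.19). KLF9, a zinc finger known as a direct glucocorticoid target, had signals of 0.175, 4.17 and 1.45 on the non-treated arrays and 24.8, 29.4 and 25.3 with dexamethasone. These are low signals, and a second probe set of KLF9 was not called, at 0.37 (adjusted p = 0.59). ZBTB16 was not called, at -0.09 with a 95% CI of -0.70 to 0.52 (adjusted p = 0.94).

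The C/EBP, FOX, ETS and grainyhead list held 10 rises and 6 falls among 47 tested genes (34% called against 6.79% of all genes). The median was -0.092, and 5 rises and 4 falls held in every alternative. CEBPD, a C/EBP factor of acute phase genes, had signals of 403, 398 and 392.3 on the non-treated arrays and 1268, 1170 and 1259 with dexamethasone and rose by 1.59 on the log2 scale (SE 0.07, adjusted p = 1.7e-12). CEBPB, its relative, rose by 0.70 on the log2 scale (SE 0.06, adjusted p = 5.6e-08), and FOXO3, a factor restrained by insulin signalling, rose by 1.41 on the log2 scale (SE 0.10, adjusted p = 2.9e-09). FOXO1 was at 0.62 (SE 0.16, adjusted p = 0.026), with the call lost in 6 alternatives. FOXA2, a pioneer factor of lung and liver, had signals of 205, 220.1 and 189 on the non-treated arrays and 104, 99.9 and 102 with dexamethasone and fell by 0.90 on the log2 scale (SE 0.13, adjusted p = 1.0e-04). FOXA1 (-0.69, SE 0.15, adjusted p = 0.0048) and FOXA3 (-0.68, SE 0.16, adjusted p = 0.011) were lower as well, but FOXA1 lost the call on the signals as deposited (adjusted p = 0.13) and with spike-in scaling (0.07), and FOXA3 in 4 alternatives. TFAP2A fell by 0.90 on the log2 scale (SE 0.09, adjusted p = 8.2e-07) and TFAP2C fell by 0.73 on the log2 scale (SE 0.12, adjusted p = 4.0e-04), both AP-2 factors. A second probe set of each was not called, at -0.48 for TFAP2A and -0.28 for TFAP2C.

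Developmental factors held more falls than rises. Of 38 tested homeobox, SOX and GATA genes, 1 rose, 8 fell and 29 did not pass (23.7% called against 6.79% of all genes). The median was -0.146, and 1 rise and 4 falls held in every alternative. SOX2, a factor of airway progenitors, had signals of 52.1, 79.8 and 77.2 on the non-treated arrays and 18.2, 29.7 and 26.8 with dexamethasone and fell by 1.06 on the log2 scale (SE 0.18, adjusted p = 5.9e-04). SOX9, of distal lung progenitors, had 446, 508 and 557 on the non-treated arrays and 249, 286 and 325 with dexamethasone and fell by 0.78 on the log2 scale (SE 0.11, adjusted p = 6.1e-05). In both the groups did not overlap. Other tested probe sets of SOX2 were not called, at -0.52 and 0.63, nor was the second of SOX9, at -0.34 (adjusted p = 0.41). SOX7 was at -0.87 (SE 0.18) and TGIF1, a repressor of TGF-beta signalling, at -0.59 (SE 0.06). TBX3 was the rise (0.83, SE 0.10). Among basic helix-loop-helix and clock factors, 5 of 44 rose and 9 fell (31.8% called, median -0.05), 2 and 3 of them in every alternative. There were 3 rises and 3 falls on the signals as deposited and 3 and 4 with spike-in scaling. PER2 rose by 1.17 on the log2 scale (SE 0.09, adjusted p = 1.3e-08) and NR1D2 rose by 1.09. The dioxin receptor AHR (-0.80), TCF4 (-0.83) and SIM2 (-0.89) fell. A second probe set of TCF4 was called lower (-0.75, adjusted p = 0.021), and its others were not called, at -0.40 to 0.02. The other probe set of SIM2, a dim one, was not called, at -0.30 (adjusted p = 0.66). HES1, a Notch target, was not called, at -0.52 with a 95% CI of -0.89 to -0.14 (adjusted p = 0.13). Among nuclear receptors 3 of 36 rose and 2 fell (13.9% called, median -0.017), with NR1D2 up and NR4A2 (-1.83) down in every alternative. The call of NR3C1, the glucocorticoid receptor, at -0.34, was lost in 5 alternatives. Of 59 chromatin modifiers, 0 rose and 3 fell by limma (5.08% against 6.79% of all genes). At an unadjusted limma p under 0.05 this list held 2 higher and 9 lower genes, where 18% of all genes tested passed in either direction.

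The BMP pathway and its ID proteins, inhibitors of helix-loop-helix factors, changed in both directions. Of 29 tested genes 4 rose and 6 fell (34.5% called against 6.79% of all genes, median -0.093). On the signals as deposited 3 rose and 3 fell, and 3 rises and 2 falls held in every alternative. ID4 had signals of 462, 485 and 491 on the non-treated arrays and 174, 185 and 197 with dexamethasone and fell by 1.30 on the log2 scale (SE 0.10, adjusted p = 1.5e-08). ID2 was lower at -0.48 (SE 0.09, adjusted p = 0.001), a call lost on the signals as deposited (adjusted p = 0.26) and with spike-in scaling (0.18), and ID1 was higher at 0.25 (SE 0.07, adjusted p = 0.026), lost in 9 alternatives. ID3 did not pass (-0.01, 95% CI -0.20 to 0.17, adjusted p = 0.98), and its sign changed with the scaling. GREM1, an antagonist of BMP ligands, fell by 1.23 on the log2 scale (SE 0.16, adjusted p = 2.6e-05). FSTL3, which binds activins, rose by 0.92, INHBB, an activin subunit, by 1.25 and the kinase HIPK2 by 1.24. SMAD3, which carries TGF-beta signals, fell by 0.86 on the log2 scale (SE 0.14, adjusted p = 5.1e-04).

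In Wnt signalling 3 of 42 tested genes rose and 6 fell (21.4% called against 6.79% of all genes, median -0.118). In every alternative 0 rises and 3 falls held. BAMBI, a pseudoreceptor, was at -1.0 (SE 0.08), the receptor FZD7 at -0.99 (SE 0.10) and AXIN2, a negative regulator and target of the pathway, at -0.75 (SE 0.13). GLI1, the effector and target of hedgehog signalling, fell by 0.87 on the log2 scale (SE 0.17, adjusted p = 0.003). In Notch signalling 1 of 25 tested genes rose and 0 fell (median 0.028), a share of 4% against 6.79%. At an unadjusted limma p under 0.05 the Notch list held 5 higher and 4 lower genes, where 18% of all genes tested passed. The Hippo list held 7 rises and 2 falls of 35 (25.7% called, median 0.037). CCN2, a matricellular target of YAP, rose by 1.38 on the log2 scale (SE 0.11, adjusted p = 1.6e-08), AMOTL2 rose by 0.74, and TGFB2 fell by 1.45 on the log2 scale (SE 0.26, adjusted p = 9.0e-04).

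Of the tested genes of adhesion, 15% of integrins, laminins and collagens, 22% of junction genes and 22.7% of keratins were called, against 6.79% of all genes. Of 60 tested integrins, laminins and collagens, 6 rose and 3 fell (median -0.007), and 3 rises held in every alternative. ITGB4, the integrin of hemidesmosomes, had signals of 195, 164 and 187 on the non-treated arrays and 525, 498 and 551 with dexamethasone and rose by 1.45 on the log2 scale (SE 0.13, adjusted p = 2.1e-07), although none of its other 4 probe sets was called. ITGA5, the fibronectin receptor, rose by 1.08 on the log2 scale (SE 0.14, adjusted p = 3.7e-05), and THBS1, thrombospondin, rose by 1.06. In cell junctions 6 of 50 rose and 5 fell (median -0.112), with PKP2, plakophilin of desmosomes (1.32, SE 0.13), and CDH16 in every alternative. OCLN (-0.53, SE 0.09, adjusted p = 0.001) and CLDN1 (-0.62, SE 0.11, adjusted p = 0.0014), both of tight junctions, were lower but lost their calls in 2 alternatives each. Keratins and intermediate filament genes gave 3 rises and 2 falls of 22 (median 0.103), with the cornified-envelope protein PPL at 0.98 (SE 0.14) and KRT80 at -1.10 (SE 0.15). CALD1, caldesmon, which binds actin, had signals of 2411, 2138 and 2318 on the non-treated arrays and 4460, 4429 and 4644 with dexamethasone and rose by 0.98 on the log2 scale (SE 0.06, adjusted p = 6.5e-10). Of 49 tested metalloproteinases and inhibitors, 1 rose and 2 fell (6.12% against 6.79%), and the rise was the aminopeptidase ANPEP (1.39, SE 0.14).

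Coagulation genes pointed in both directions. Of 39 tested, 4 rose and 4 fell (20.5% called against 6.79% of all genes, median 0.064), 2 and 2 of them in every alternative. THBD, thrombomodulin, which turns thrombin to an anticoagulant role, had signals of 186, 185 and 163 on the non-treated arrays and 659.6, 687 and 646 with dexamethasone and rose by 1.81 on the log2 scale (SE 0.08, adjusted p = 4.9e-12). FGA, the fibrinogen alpha chain, rose by 1.03 on the log2 scale (SE 0.11, adjusted p = 1.9e-06). PLAUR, the urokinase receptor, fell by 1.00 on the log2 scale (SE 0.12, adjusted p = 1.3e-05), and SERPINB9, an inhibitor of granzyme B, fell by 0.73. Of 34 tested complement and acute phase genes, C3 (0.97, SE 0.14) and CD59 rose and 0 fell by limma (5.88% called). At an unadjusted limma p under 0.05 there were 5 higher and 3 lower, where 18% of all genes tested passed in either direction. The interleukin-1, Toll-like and TNF list had 1 rise and 6 falls of 47 (14.9% called, median -0.111). TNFSF9 (-1.01, SE 0.14) and TNFRSF21 (-0.91, SE 0.13) were lower besides TNFSF15. The dim probe set that stands for CXCL8, a neutrophil chemokine, was not called, at -0.36 with a 95% CI of -0.80 to 0.08 (adjusted p = 0.48), whereas its brighter probe set was called lower, at -0.82 (adjusted p = 0.015), with mean signals of 63.0 non-treated and 29.0 with dexamethasone.

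Genes of the list of cell cycle inhibitors and G1 cyclins, and apoptosis genes, were called more often than all genes (22.5% and 17.4% against 6.79%). Replication and mitosis genes were not. Of 40 tested cell cycle inhibitors and G1 cyclins, 3 rose and 6 fell (median -0.129), against 2 and 1 on the signals as deposited. CDKN1C, a cyclin-dependent kinase inhibitor, had signals of 15.9, 14.6 and 23.0 on the non-treated arrays and 362, 397 and 436 with dexamethasone and rose by 3.62 on the log2 scale (SE 0.12, adjusted p = 8.2e-14), with its 3 other probe sets called higher too. CCND3, a G1 cyclin, fell by 0.73 on the log2 scale (SE 0.05, adjusted p = 2.9e-09). Of 47 DNA replication genes 0 rose and 3 fell by limma (6.38% called, median -0.109, 0 higher and 10 lower at an unadjusted p under 0.05), the clamp loader subunits RFC3, RFC4 and RFC5 at -0.31, -0.23 and -0.26, each lost in 6 to 8 alternatives. Of 56 mitosis genes 0 rose and 3 fell by limma (5.36% called, median -0.088, 1 higher and 14 lower unadjusted), with ECT2 (-0.63, SE 0.10) in every alternative. At that unadjusted threshold 18% of all genes tested passed in either direction. Among 46 apoptosis genes 5 rose and 3 fell (median -0.035). MCL1, an anti-apoptotic BCL2 relative, had signals of 698, 701 and 749 on the non-treated arrays and 1722, 1671 and 2049 with dexamethasone and rose by 1.32 on the log2 scale (SE 0.07, adjusted p = 1.6e-10). GADD45A rose by 1.58, and PHLDA2 (-1.22, SE 0.12) and PHLDA1 (-0.68, SE 0.07) fell.

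Several lists held no calls. Of 38 proteasome subunits, 28 aminoacyl-tRNA synthetases and 28 long non-coding RNAs, 0 were called by limma, with medians of -0.016, -0.032 and -0.094. At an unadjusted limma p under 0.05 these lists held 4, 5 and 5 genes, where 18% of all genes tested passed. On the signals as deposited and with spike-in scaling 1 long non-coding RNA was called. Of 52 oxidative phosphorylation subunits 1 was called (1.92%), of 44 ribosome biogenesis genes 3 (6.82%) and of 44 antigen presentation genes 1 (2.27%), against 6.79% of all genes. The reference genes ACTB (0.06, 95% CI -0.04 to 0.16, adjusted p = 0.67) and GAPDH (adjusted p = 0.995) did not pass the test. Chaperones held 5 rises and 5 falls of 55 (18.2% called, median -0.021). FKBP5, a co-chaperone of the receptor, had signals of 213, 229 and 251 on the non-treated arrays and 2659, 2711 and 2828 with dexamethasone, and BAG3 rose by 0.67 while DNAJC12 (-0.73) and DNAJB4 (-0.66) fell. Ubiquitin ligases gave 5 rises and 7 falls of 58 (20.7% called, median -0.058). FBXL16, an F-box protein, rose by 1.84 on the log2 scale (SE 0.11, adjusted p = 2.9e-10), TRIM29 rose by 1.48 on the log2 scale (SE 0.11, adjusted p = 1.1e-08), with a dim probe set not called at -0.68 (adjusted p = 0.28), and KLHL21 fell by 0.90. Glycosylation enzymes gave 3 rises and 7 falls of 56 (17.9% called, median -0.064, with 2 and 2 on the signals as deposited). Among the largest changes were 2 sialyltransferases in opposite directions. ST3GAL1, which caps O-glycans, had signals of 35.1, 39.9 and 33.1 on the non-treated arrays and 189.5, 164 and 180.1 with dexamethasone. ST8SIA4, which makes polysialic acid, had 117, 112 and 113 on the non-treated arrays and 14.7, 13.9 and 16.8 with dexamethasone. The groups were apart for each, and the changes were 1.90 (SE 0.14, adjusted p = 1.2e-08) and -2.06 (SE 0.14, adjusted p = 3.1e-09).

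**Figure D4:**
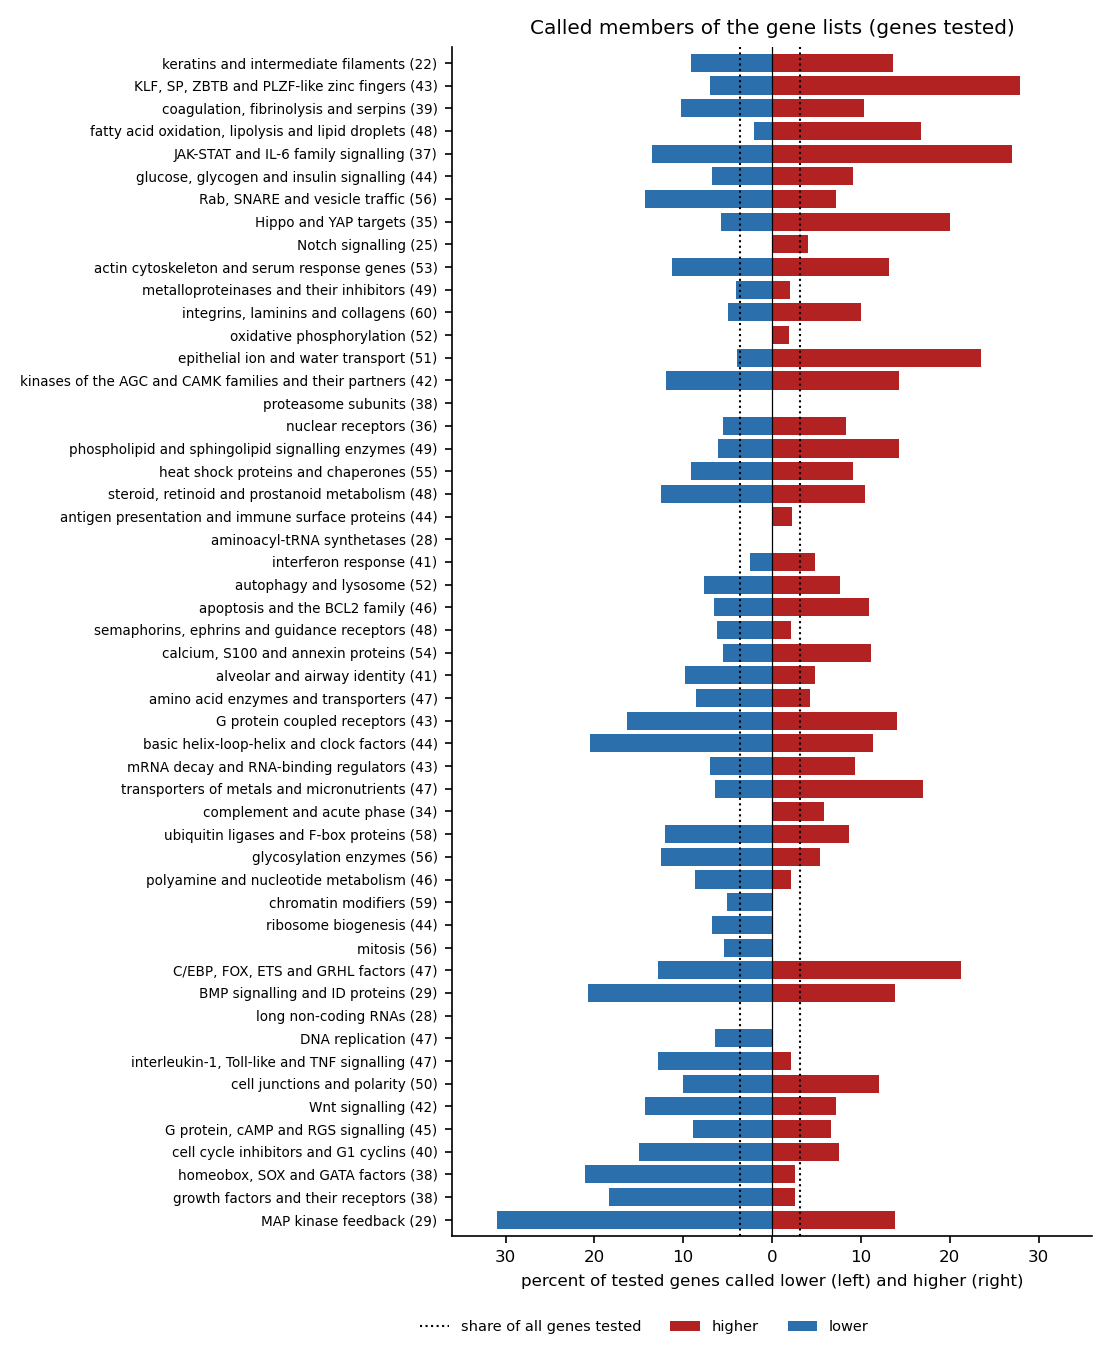
Share of the tested genes of each list shown that were called higher (red, right) or lower (blue, left), with the share of all genes tested (3.19% higher, 3.6% lower) as dotted lines and lists in order of median change. MAP kinase feedback and growth factors stand at the bottom with medians of -0.24 and -0.156, and proteasome subunits, aminoacyl-tRNA synthetases and long non-coding RNAs have no bar.

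Among regulators of mRNA decay 4 of 43 rose and 3 fell (16.3% called against 6.79% of all genes, median -0.051). ZFP36, which destabilises AU-rich messages, was at 2.16 (SE 0.10), CPEB4 at 0.88 (SE 0.15) and CPEB2, a relative of CPEB4, at -1.18 (SE 0.10). In the AGC and CAMK kinase list 6 of 42 rose and 5 fell (26.2% called, median -0.014). There were 3 and 1 on the signals as deposited and with spike-in scaling. PRKCD, protein kinase C delta, was at 1.49 (SE 0.21) and NUAK1 at -0.72 (SE 0.10). In autophagy 4 of 52 rose and 4 fell (15.4% called, median -0.035), with DDIT4, an inhibitor of mTORC1, at 0.93 (SE 0.05) and the cargo receptor SQSTM1 at -0.61 (SE 0.08). In vesicle traffic 4 of 56 rose and 8 fell (21.4% called, median 0.037), with RAB11FIP1 at 1.36 (SE 0.11), SYTL2 at -0.97 (SE 0.14) and SYT1 at -0.93 (SE 0.19). Calcium-binding genes gave 6 rises and 3 falls of 54 (16.7% called, median -0.042), with S100P at 1.15 (SE 0.08) and the calcium pump ATP2B1 at -0.81 (SE 0.08). Guidance genes gave 1 rise and 3 falls of 48 (median -0.036), with SEMA3A at -0.80 (SE 0.16). Their share called was 8.33%, near the 6.79% of all genes. The alveolar and airway list gave 2 rises and 4 falls of 41 (14.6% called, median -0.042), with the mucin MUC1 at 0.88 (SE 0.17) and TM4SF20 at -1.84 (SE 0.12). Actin and serum response genes gave 7 rises and 6 falls of 53 (24.5% called, median 0.027). In all, 397 of the 2292 tested genes in the lists were called, and 714 called genes lay outside them. The lists were chosen with earlier results of these data known, so a share above that of all genes is a description.

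The mean signals with mifepristone, an antagonist of the receptor given for 48 hours with 6 hours of dexamethasone, are set beside these for some genes, and the comparison shares the dexamethasone arrays. SCNN1G stood at 3.06 non-treated, 47.0 with dexamethasone and 5.30 with mifepristone and dexamethasone. HSD11B2 stood at 2.35 non-treated, 22.6 with dexamethasone and 4.83 with mifepristone and dexamethasone. LIFR stood at 66.0 non-treated, 171 with dexamethasone and 76.0 with mifepristone and dexamethasone. For these genes the third value lay near the first. PDK4 stood at 542 non-treated, 1396 with dexamethasone and 1088 with mifepristone and dexamethasone, and TGFBR1 at 759 non-treated, 1530 with dexamethasone and 1336 with mifepristone and dexamethasone. In these 2 the third value stayed nearer to the dexamethasone level. Among falls, FOXA2 stood at 205 non-treated, 102 with dexamethasone and 207 with mifepristone and dexamethasone and IL11 at 88.5 non-treated, 5.55 with dexamethasone and 29.4 with mifepristone and dexamethasone. These means are after quantile normalization. The genes are examples, and no count over all called genes and no test of the return is given here.

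Structural features of the changed genes were read from the annotation. The median span of the called rises was 50.2 kb and of the called falls 41.0 kb, against 26.9 kb over all genes, while rises and falls of 2-fold or more had medians of 31.3 and 21.4 kb. Median GC of the promoter window was 68.5% for rises and 66.0% for falls against 64%. For changes of 2-fold or more it was 69.0% for rises and 63.3% for falls. Among 16283 pairs of tested genes next to each other, both members were called higher in 49 and lower in 57, and they were called in opposite directions in 35. Of all genes, 3.19% were called higher and 3.6% lower. How many pairs these shares alone would give was not computed. Pairs called in the same direction include MT2A with MT1E, CDH16 with RRAD, ERRFI1 with SLC45A1 (0.84, a call lost in 2 alternatives) and NEURL1B (1.5) with DUSP1 among the rises, and NAV3 with SYT1 among the falls. The probe sets of MT2A and MT1E may each measure several metallothioneins. Of 757 called genes with further tested probe sets, 316 (41.7%) had another probe set called in the same direction and 0 in the opposite one. Among the 116 of these with a change of 2-fold or more, 81 (69.8%) did. For 441 of the 757 no other probe set was called, and such probe sets are given above for some genes only.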

How the data were processed

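RNA of A549 cells was measured on 15 arrays, 3 in each of 5 groups. The authors deposited linear signal intensities for 54675 probe sets, which MAS5 computed, per the submitters' processing notes; the sources used here name neither its version nor its target for scaling. The intensities were quantile normalized over the 15 arrays, and 16 was added before taking log2. Of these, 39744 probe sets passed the filter on low signals. They were tested in R 4.3.3 with limma 3.58.1 (lmFit, then eBayes with a variance trend), with 1 coefficient for each group and Benjamini-Hochberg adjustment over all probe sets tested. All adjusted p-values are from this limma fit, with a threshold of 0.05. The fit uses the spread of all 15 arrays, and the number of arrays limits the precision. The computation was tested on simulated data.

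A gene was represented by 1 probe set carrying its symbol alone, with the highest mean signal, after those not marked as cross-hybridising. Named genes were the 30 largest called rises and falls with groups that did not overlap, up to 6 called genes per list and direction, the 10 brightest in each direction and a fixed set. Genes that crossed the low-signal line, genes with printed promoters, the FOS and JUN genes, NFE2L2, MAFG, SRC, GLI1, SMAD3, TGFBR1, ARRB1, ETNK2, TMT1A, MT1G, SLC30A1, SLC45A1, NEURL1B and further list members were chosen after their values were seen. The comparison, the lists and the rule were chosen with earlier results of these data known. The alternatives covered scaling, the added constant, the filter, the variance trend, the arrays fitted, a replicate block and leaving out each array. The numbers in the titles did not pair the arrays (correlations of same-numbered deviations of 0.028, -0.0426 and 0.0419). Promoter sequences came from RefSeq (GRCh38.p14). Results of 1 of the gene lists are not reported here.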

Additional observations from a re-analysis of the deposited data

How the results depend on the processing

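The count of 1927 changed probe sets fell to 814 (564 higher, 250 lower) on the signals as deposited and to 767 (452 and 315) with spike-in scaling. The count of 1111 changed genes fell to 441 and 440. Changes of 2-fold or more went from 371 to 568 with an added constant of 1 and to 185 with 64. The cause was not tested, apart from the constant, which by construction shrinks changes of dim genes. Leaving out 1 array at a time gave 1430 to 1637 probe sets, 373 to 412 of 2-fold or more and 834 to 940 genes. With the replicate number as a block, 1922 probe sets, 374 of 2-fold or more and 1108 genes were called; no pairing was found. Other alternatives kept these counts within 1.5 times. Among 401 named genes, 13 values reversed sign, all for genes not called. ZBTB16 ranged from -0.2820 to 0.1588 with 1 array left out, above 0 without dexamethasone replicate 2 alone (adjusted p = 0.912). ID3 stood at 0.0304 on the signals as deposited, 0.0144 with trimmed-mean scaling and 0.0112 with median centring, and ranged from -0.1286 to 0.0565 with 1 array left out. GAPDH stood at 0.0465, 0.0306 and 0.0273 under the same scalings, and ranged from -0.0193 to 0.0190 with 1 array left out. The scalings moved the median over all genes between -0.081 and -0.017. Signals near the low-signal line limit what can be measured for dim genes.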

Other observations

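Some further values are given here, of which the 1.88 of MALAT1 is the largest change among the long non-coding RNAs counted above. MALAT1, a nuclear non-coding RNA, had signals of 660.0, 135 and 212 on the non-treated arrays and 1739, 1566 and 399 with dexamethasone, a change of 1.88, 95% CI 0.66 to 3.09, adjusted p = 0.077. PLB1, a phospholipase, had signals of 25.1, 16.6 and 33.8 on the non-treated arrays and 4.41, 5.44 and 2.79 with dexamethasone, a change of -1.01, 95% CI -1.63 to -0.38, adjusted p = 0.06. These 2 changes exceeded 2-fold without passing the test. Among mitochondrially encoded genes, COX1 was at -0.69, 95% CI -1.01 to -0.37, adjusted p = 0.0078, with its call lost in 3 alternatives, and COX2 at -0.04, 95% CI -0.13 to 0.05, adjusted p = 0.77.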
